A study of Homo sapiens with 77 samples.

Results

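The MYC network is a family of basic helix-loop-helix leucine zipper transcription factors, and its 10 members followed here were MYC, MYCN, MYCL, MAX, MXD1, MXD3, MXD4, MXI1, MNT and MLX. They were looked up by symbol, and all 10 were found among the 35813 genes of an RNA-seq count table of MI-503-treated cells and among the 21455 genes of a second table of a drug combination. Both tables hold human diffuse large B-cell lymphoma lines with 2 libraries per condition. In the MI-503 experiment, KARPAS422 and DB, both marked EZH2 mutant in the study, and Farage and SUDHL5, both marked EZH2 wildtype, received DMSO or MI-503 (800 nM, 3 days). In the drug combination experiment, KARPAS422 and the EZH2-mutant line SuDHL10 received a DMSO control, 1 µM EPZ-6438, 330 nM VTP50469 or both drugs, for 48 h in KARPAS422 and 24 h in SuDHL10. MI-503 and VTP50469 inhibit menin, the adaptor that holds MLL1/MLL2 on chromatin, and EPZ-6438 (tazemetostat) inhibits EZH2, the methyltransferase of PRC2. No cell line was authenticated, the doses and times stand in the study's figure legends rather than in the labels, and nothing says that the libraries of a condition came from separate cultures, so the p-values measure the spread between libraries, which may be technical.

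MYC, MYCN and MYCL bind the E-box CACGTG as heterodimers with MAX and activate genes of ribosome biogenesis, nucleotide synthesis and glycolysis. MXD1, MXD3, MXD4, MXI1 (also called MXD2) and MNT compete for the same partner and the same DNA and recruit SIN3 with histone deacetylases. MLX is the MAX-like partner of MondoA (MLXIP) and ChREBP (MLXIPL), which respond to glucose, and it can also pair with MXD1, MXD4 and MNT. MYC is a translocated or overexpressed oncogene in part of B-cell lymphomas, while germinal center B cells largely keep it silent through BCL6.

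Gene positions are given on hg38, from GENCODE v44. MYC is at chr8:127735434-127742951, MYCN at chr2:15940550-15947007 and MYCL at chr1:39895428-39902256. MAX is at chr14:65006174-65102695 and MLX at chr17:42567072-42573239. The repressors are at chr2:69897688-69942945 (MXD1), chr5:177301461-177312757 (MXD3), chr4:2247432-2262109 (MXD4), chr10:110207605-110287365 (MXI1) and chr17:2384073-2401104 (MNT). The sources used here do not say whether reads were counted by strand, and the reads of MYC and CASC11, of MAX and FNTB, of MXD3 and PRELID1, and of MLX and PSMC3IP, which overlap on opposite strands, may not be told apart. MXD1 overlaps SNRNP27 and MXD3 overlaps RAB24 on the same strand.

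Libraries of the MI-503 table held 13034958 to 54883332 counts, and the drug combination libraries held 8956156 to 31573027. In DB the depth moved with treatment, at 14695930 and 15474692 counts with DMSO compared with 46170498 and 52236459 with MI-503. The B-cell markers MS4A1, CD79A, CD79B, PAX5 and BCL6 were above 0 in every library. Summed T-cell markers were 40.4 to 65.3 CPM (counts scaled to a common library total) in KARPAS422 and at most 2.86 CPM in the other lines. The library of Farage with MI-503 replicate 1 held 41.7 CPM of summed epithelial markers and 25.8 CPM of erythroid markers, where the other libraries of this line held at most 5.25 and 0.14 CPM. The library of KARPAS422 with both drugs replicate 2 held 9.82 CPM of epithelial and 3.81 CPM of fibroblast markers and had the highest TMM normalization factor of its table, 1.27. Results that changed without these libraries are given both ways.

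The E-box is the letters that the whole network reads, so the windows from 250 bases before to 50 bases after each RefSeq transcript start (GRCh38.p14) were searched for CACGTG, a palindrome that reads the same on both strands. Of the 9 members with a window, 3 held it, MXD4, MNT and MLX, compared with 8.77% of the 27305 genes that have a window. The stretches below run 5′ to 3′ on the strand of the gene, from 250 to 45 bases before the start, and the E-box is in capitals. They are shown because these 3 genes carry the recognition letters of their own family, at 238, 193 and 50 bases before the start.
MXD4 (chr4:2262154-2262359, minus strand): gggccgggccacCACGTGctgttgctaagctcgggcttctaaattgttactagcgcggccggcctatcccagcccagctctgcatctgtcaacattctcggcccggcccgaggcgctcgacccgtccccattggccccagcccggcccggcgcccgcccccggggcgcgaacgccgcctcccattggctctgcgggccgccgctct
MNT (chr17:2401105-2401310, minus strand): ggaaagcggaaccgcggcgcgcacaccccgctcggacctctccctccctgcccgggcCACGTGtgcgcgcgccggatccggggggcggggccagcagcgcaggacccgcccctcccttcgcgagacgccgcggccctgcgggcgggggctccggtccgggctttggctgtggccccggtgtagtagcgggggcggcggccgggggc
MLX (chr17:42566850-42567055, plus strand): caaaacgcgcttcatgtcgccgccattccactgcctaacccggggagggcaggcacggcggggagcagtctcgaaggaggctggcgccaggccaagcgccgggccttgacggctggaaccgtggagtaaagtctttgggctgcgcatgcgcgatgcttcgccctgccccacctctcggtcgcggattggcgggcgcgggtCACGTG
A match describes the sequence and does not show binding, and no window of MYC was at hand.

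The first question was how much of each factor the untreated lines carry. Levels are given as CPM after TMM normalization over the 16 libraries of a table, and a difference was called at an adjusted p under 0.1 in edgeR's quasi-likelihood test over all genes. MYC, the oncogenic activator, spanned the widest range of the members that were tested in every line. With DMSO it stood at 709 and 711 CPM in DB, at 209 and 210.3 CPM in KARPAS422, at 194 and 192 CPM in Farage and at 29.9 and 28.5 CPM in SUDHL5. DB was highest and SUDHL5 lowest, and their log2 difference was 4.55 ± 0.04 (SE; adjusted p = 4.39e-18). KARPAS422 and Farage, neighbours in that order, differed by 0.05 ± 0.03 on the log2 scale and were not called (adjusted p = 0.131). MYCL was near the limit of counting, at 2.94 and 2.6 CPM in DB, 2.19 and 2.09 CPM in SUDHL5, and under 0.8 CPM in the other 2 lines. MYCN had no read in 10 of the 16 libraries of the MI-503 table and in 14 of 16 of the drug combination table, and only Farage held it in every library, at 0.13 to 0.49 CPM, from 2 to 9 counts. It never passed the filter on low counts and was not tested.

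**Figure D1:**
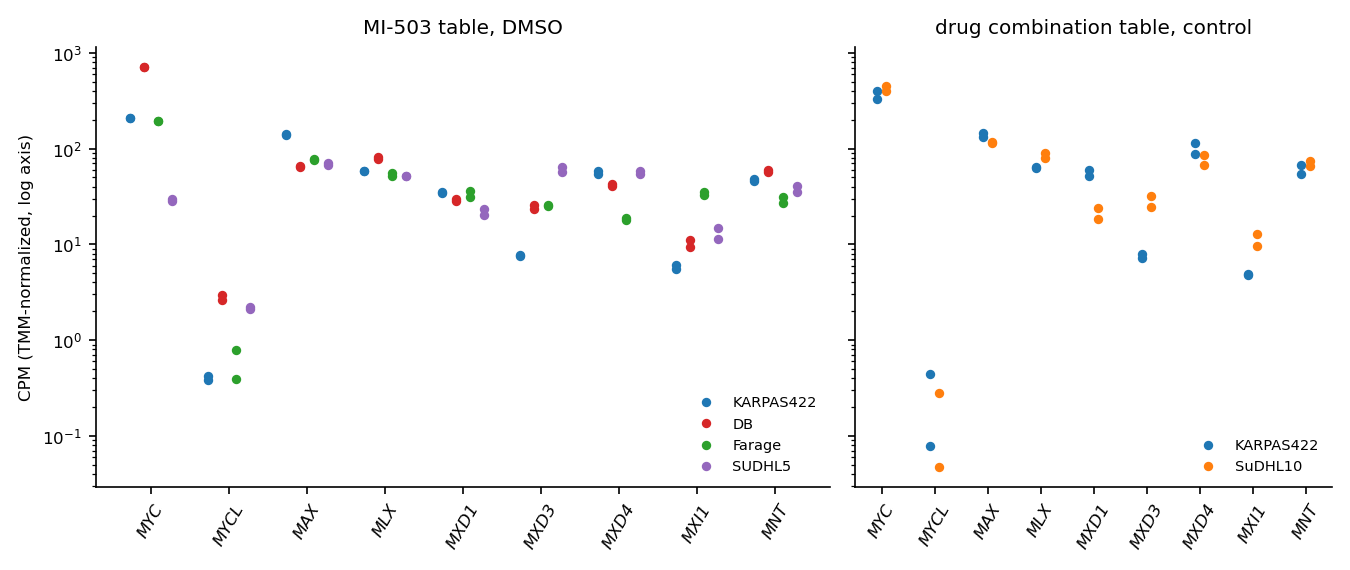
Levels of 9 members in untreated cells (CPM on a log axis, 1 point per library) in the 4 lines of the MI-503 table with DMSO (left) and the 2 lines of the drug combination table with control (right). MYC runs from 28.5 CPM in SUDHL5 to 711 CPM in DB, and MXD3 and MXI1 are lowest in KARPAS422 in both tables.

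MAX, the partner that every MYC and MXD protein needs, varied less. It was highest in KARPAS422, at 138 and 143 CPM, and lay between 64.7 and 77.2 CPM in the other 3 lines. The differences among those 3 were small, the largest being 0.34 on the log2 scale between Farage and DB, yet each was called since the libraries of a line lay close together. MLX was highest in DB, at 77.3 and 82.0 CPM, and between 51.4 and 58.5 CPM elsewhere, and KARPAS422 and Farage did not differ beyond their spread (log2 difference 0.05 ± 0.05, adjusted p = 0.366).

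Each repressor had its own order of lines. MXD3 was at 64.4 and 57.5 CPM in SUDHL5, the line with the least MYC, and at 7.72 and 7.61 CPM in KARPAS422, a log2 difference between KARPAS422 and SUDHL5 of -3.01 ± 0.07 (adjusted p = 3.81e-14). DB and Farage lay between them at 23.2 to 25.5 CPM and did not differ beyond their spread (adjusted p = 0.117). MXI1 was highest in Farage, at 34.9 and 32.9 CPM, and lowest in KARPAS422, at 5.5 and 6.15 CPM (log2 difference -2.61 ± 0.11, adjusted p = 3.44e-11). MXD4 had the reverse order of these 2 lines, with 57.9 and 54.4 CPM in KARPAS422 and 19.0 and 18 CPM in Farage. MXD4 of KARPAS422 and SUDHL5 did not differ (log2 difference -0.03 ± 0.05, adjusted p = 0.657), although on total counts alone without TMM it was called at 0.13. MXD1 was between 20.1 and 35.7 CPM and MNT between 27.2 and 59.7 CPM in all 4 lines. MXD1 was lowest in SUDHL5, MNT in Farage, and the highest MNT was in DB.

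Between lines, most genes differ. Of the 9 members tested, 9 were called between KARPAS422 and DB (81.2% of all genes tested), 5 between KARPAS422 and Farage (80.4%), 8 between KARPAS422 and SUDHL5 (81.8%), 8 between DB and Farage (82.1%), 8 between DB and SUDHL5 (81.4%) and 9 between Farage and SUDHL5 (78.3%). The members thus differed between lines about as often as any gene, apart from KARPAS422 and Farage, where MYC, MYCL, MXD1 and MLX were not called. On total counts alone that pair had 8 members called, 6 higher and 2 lower in KARPAS422, instead of 3 and 2, and MXD1 turned from -0.01 to 0.17. In the drug combination table, 4 of 8 members tested were called between SuDHL10 and KARPAS422, compared with 62.4% of all genes. MXD3 (log2 difference 1.94 ± 0.20), MXI1 (1.24 ± 0.22) and MLX (0.45 ± 0.15) were higher and MXD1 (-1.35 ± 0.18) was lower in SuDHL10. The call of MLX was lost on total counts (adjusted p = 0.153) and without SuDHL10 control replicate 1 (0.270) or KARPAS422 control replicate 2 (0.117). MYC was at 455 and 401 CPM in SuDHL10 and at 332 and 395 CPM in KARPAS422 and was not called (adjusted p = 0.126). Without TMM the median of all genes in that comparison moved from -0.01 to -0.19.

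Per kilobase of merged exons, MYC led the network in untreated DB, KARPAS422, Farage and SuDHL10, at 116, 34.3, 31.6 and 70.0 CPM per kb. In SUDHL5 it was the sixth of the network genes, at 4.78 CPM per kb, after MXD3, MLX, MAX, MXD4 and MLXIP. The ratio of MYC to the sum of the 5 repressors on this per-kilobase scale was 4.76 and 4.87 in the DMSO libraries of DB, 1.58 and 1.6 in KARPAS422, 1.39 and 1.43 in Farage, and 0.149 and 0.16 in SUDHL5. Per kilobase of the canonical transcript, a length chosen after the data were seen, MAX rather than MYC led in KARPAS422 with DMSO (69.9 against 56.4 CPM per kb).

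MI-503 was then compared with DMSO within each line, to ask which members follow menin inhibition. MYC fell in DB and SUDHL5 and did not fall in KARPAS422 or Farage. In DB it went from 709 and 711 CPM to 130.5 and 149 CPM, 5.08-fold lower (log2 fold change -2.34 ± 0.05, adjusted p = 7.83e-12). The treated level of DB was below that of untreated KARPAS422 and Farage. In SUDHL5 it went from 29.9 and 28.5 CPM to 18.7 and 19.8 CPM (-0.59 ± 0.08, adjusted p = 0.000202). Treated and untreated libraries did not overlap in either line, and with all DB libraries thinned to the depth of the shallowest the DB value was -2.33. KARPAS422 went from 209 and 210.3 CPM to 225 and 226 CPM, a difference of 0.10 ± 0.03 that was called (adjusted p = 0.0158), and lost its call when all 16 libraries shared a fit (adjusted p = 0.198) or without the MI-503 replicate 2 (adjusted p = 0.134). Farage had 194 and 192 CPM with DMSO and 195 and 224 CPM with MI-503 (0.09 ± 0.05, adjusted p = 0.226). Without its MI-503 replicate 1, which holds epithelial and erythroid reads, the value was 0.14 and was called (adjusted p = 0.0153).

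**Figure D2:**
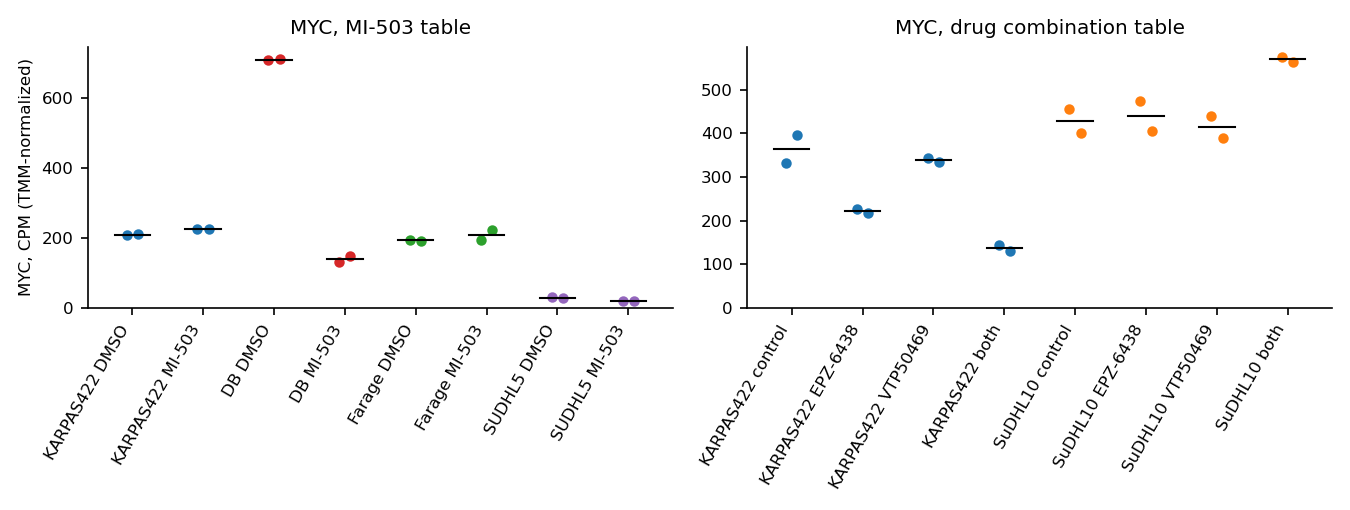
MYC in every library (CPM, linear axis from 0), with points for the 2 libraries of each condition and a bar at their mean, in the MI-503 table (left) and the drug combination table (right). DB falls from about 710 to 130.5 and 149 CPM with MI-503, and KARPAS422 with both EPZ-6438 and VTP50469 falls to 144 and 131 CPM while SuDHL10 reaches 576 and 565 CPM.

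MXI1, a repressor that competes with MYC for MAX, rose in KARPAS422 and fell in Farage. In KARPAS422 it went from 5.5 and 6.15 CPM to 12.8 and 11.7 CPM, 2.11-fold (log2 1.08 ± 0.10, adjusted p = 7.65e-06). In Farage it fell from 34.9 and 32.9 CPM to 20.5 and 25.7 CPM (-0.57 ± 0.09, adjusted p = 0.00169). The difference between the changes of these lines was 1.61 ± 0.17 on the log2 scale (adjusted p = 5.65e-06 for the interaction). MXI1 was not called in DB (0.20 ± 0.11) or SUDHL5 (-0.23 ± 0.11). Under the alternatives it was called in 4 of 11 in DB and in 1 of 11 in SUDHL5.

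MXD1 moved opposite ways in 2 pairs of lines. It rose in DB, from 28.1 and 29.5 CPM to 40.7 and 40.8 CPM (0.50 ± 0.06, adjusted p = 1e-05), and in SUDHL5, from 23.2 and 20.1 CPM to 28.7 and 35.6 CPM (0.59 ± 0.10, adjusted p = 0.00081). These are the lines in which MYC fell with MI-503, and a link between MXD1 and MYC was not tested. MXD1 fell in Farage, from 35.7 and 31.5 CPM to 20.3 and 24 CPM (-0.62 ± 0.08, adjusted p = 0.00085), and by 0.21 ± 0.05 in KARPAS422 (adjusted p = 0.00772). MXD4 was lower in DB (-0.30 ± 0.06, adjusted p = 0.000546), higher in SUDHL5 (0.43 ± 0.06, adjusted p = 0.000308) and not called in the other lines. MXD3 was higher in Farage, from 25.5 and 25.1 CPM to 32.0 and 33.6 CPM (0.34 ± 0.06, adjusted p = 0.00536). Smaller rises of MXD3 in DB (0.19) and SUDHL5 (0.18) lost their call under DESeq2 (adjusted p = 0.177 and 0.143). MNT changed by at most 0.16 in any line, and each of its 3 calls, lower in KARPAS422 and DB and higher in SUDHL5, was lost under some alternative.

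MAX fell in KARPAS422, from 138 and 143 CPM to 112 and 113 CPM (-0.32 ± 0.03, adjusted p = 2.65e-05), and in Farage, from 77.2 and 76.2 CPM to 61.9 and 69.7 CPM (-0.25 ± 0.05, adjusted p = 0.00868). The Farage call was lost without either DMSO library (adjusted p = 0.112 and 0.113). In DB, MAX was higher by 0.12 ± 0.04 (adjusted p = 0.0198), a call that thinning to equal depth removed (adjusted p = 0.276), as it did that of MLX in DB (0.14, adjusted p = 0.163 after thinning). MLX was lower in KARPAS422 (-0.13), a call lost without MI-503 replicate 1 (adjusted p = 0.152) or in 1 fit of all 16 libraries (0.112). It was lower in Farage (-0.21), a call lost without DMSO replicate 2 (adjusted p = 0.311), in DESeq2 (0.165) or in 1 fit of all 16 libraries (0.132). MYCL fell in SUDHL5, from 2.19 and 2.09 CPM to 0.851 and 1.03 CPM, which is from 111 and 30 counts to 11 and 43 counts (-1.15 ± 0.32, adjusted p = 0.015). That call was lost after thinning (adjusted p = 0.352) and without the DMSO replicate 1 (adjusted p = 0.130).

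**Figure D3:**
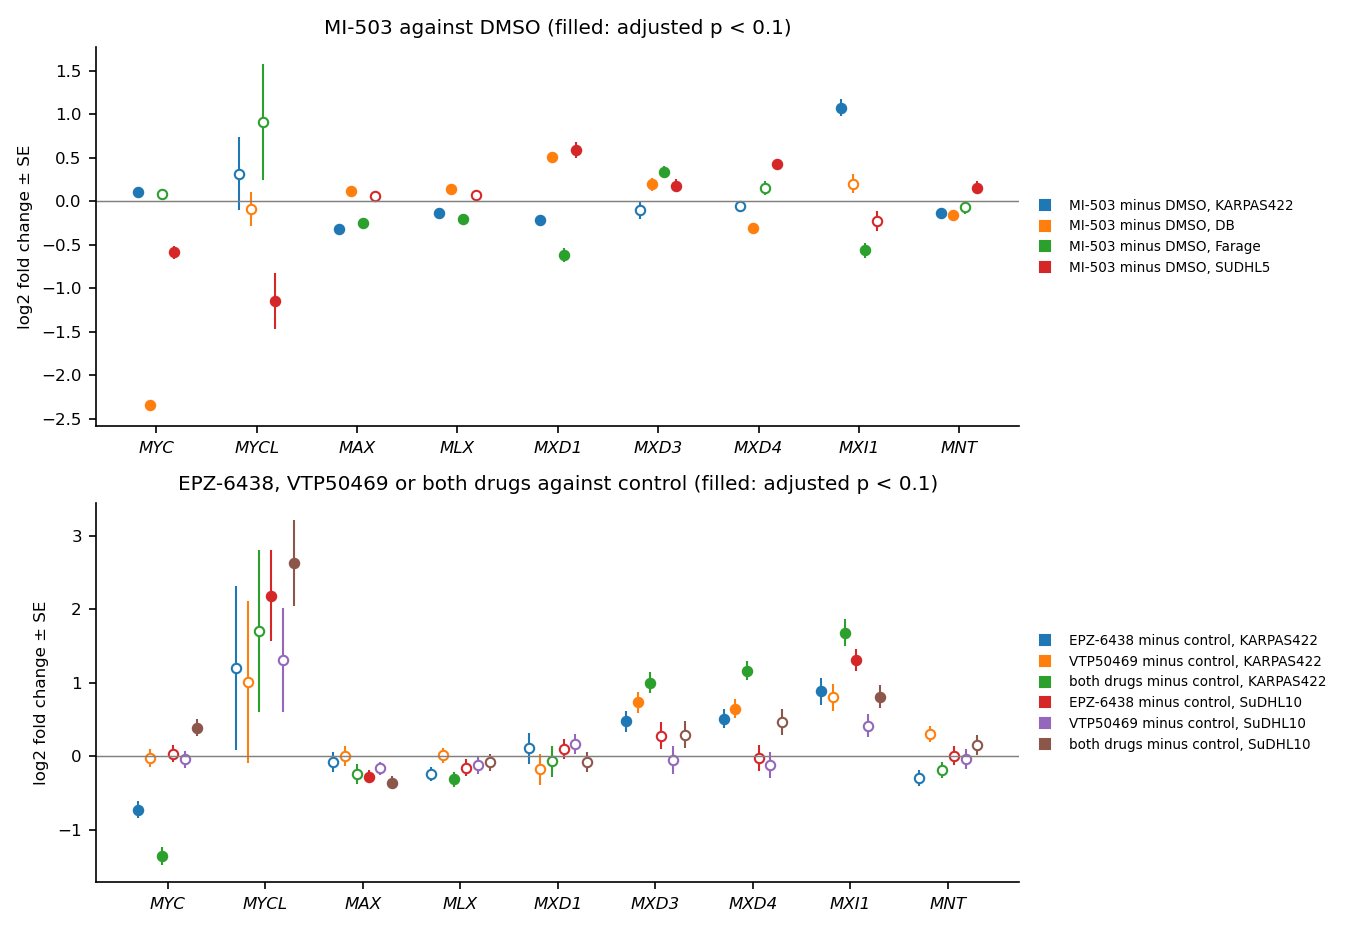
Log2 fold changes of 9 members with their standard errors, for MI-503 against DMSO in 4 lines (top) and for each treatment against control in KARPAS422 and SuDHL10 (bottom). Filled points have an adjusted p under 0.1 and open points do not. MYC is at -2.34 in DB with MI-503 and at -1.36 in KARPAS422 with both drugs, and MXI1 is called higher in KARPAS422 with MI-503, EPZ-6438 and both drugs.

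In all, MI-503 changed 6 of 9 members in KARPAS422 (51.8% of all genes tested), 7 of 9 in DB (69.2%), 5 of 9 in Farage (27%) and 6 of 9 in SUDHL5 (55%). The share of members was close to that of all genes in 3 lines and above it in Farage. Most of these changes were small. With a fold over 1.5 also required, 1 member was left in KARPAS422 (MXI1), 1 in DB (MYC), 1 in Farage (MXD1) and 3 in SUDHL5 (MYC, MYCL and MXD1). The change with MI-503 differed between the 4 lines for all 9 members tested (edgeR F test of 3 interaction terms, 57.2% of all genes), with adjusted p from 3.29e-12 for MYC to 0.0782 for MXD3. Between KARPAS422 and Farage it differed for 3 members, MXI1, MXD1 (0.37 ± 0.13) and MXD3 (-0.48 ± 0.15), compared with 19.5% of all genes. Calls of MXD1 and MXD3 in that pair were lost after thinning (adjusted p = 0.192 and 0.162).

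MI-503 lowered the per-kilobase ratio of MYC to the summed repressors in DB from 4.76 and 4.87 to 0.857 and 0.96. In SUDHL5 it was 0.149 and 0.16 before and 0.0908 and 0.0805 after. In KARPAS422 (1.58 and 1.6 with DMSO, 1.75 and 1.74 with MI-503) and Farage (1.39 and 1.43, then 1.63 and 1.69) it was higher with the drug. The treated and untreated libraries did not overlap in any of the 4 lines on this scale. Per kilobase of the canonical transcript they overlapped in Farage, where the DMSO libraries were at 1.03 and 1.04 and the treated ones at 1.04 and 1.1. No test was made of this ratio.

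The drug combination experiment asks whether inhibitors of EZH2 and menin act together. In KARPAS422, MYC fell with EPZ-6438 and further with both drugs. It was at 332 and 395 CPM with control, 226 and 217 CPM with EPZ-6438, 343 and 335 CPM with VTP50469, and 144 and 131 CPM with both. EPZ-6438 alone gave a log2 fold change of -0.73 ± 0.12 (adjusted p = 0.0182) and both drugs -1.36 ± 0.12 (adjusted p = 0.000547), 2.57-fold lower than control. Adding VTP50469 to EPZ-6438 lowered MYC by a further 0.64 ± 0.12 (adjusted p = 0.0254), although VTP50469 alone gave -0.03 ± 0.12 (adjusted p = 0.987). That further fall was called in 12 of 15 alternatives, with values from -0.95 to -0.50. The departure of both drugs from the sum of the single changes was -0.61 ± 0.17, with an adjusted p of 0.718 in edgeR and of 0.00871 in DESeq2 (-0.56). The fall with both drugs was called in all 15 alternatives, with values from -1.66 to -1.14. The fall with EPZ-6438 was called in 13 of 15, and not without EPZ-6438 replicate 2 (adjusted p = 0.700) or VTP50469 replicate 1 (adjusted p = 0.274).

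The repressors MXI1, MXD4 and MXD3 moved the other way in KARPAS422. MXI1 was at 4.81 and 4.95 CPM with control, 8.85 and 9.3 CPM with EPZ-6438, 7.46 and 8.73 CPM with VTP50469, and 16.2 and 14.2 CPM with both (log2 1.68 ± 0.18 for both against control, adjusted p = 0.000943). MXD4 was at 87.7 and 115 CPM with control, 149.9 and 141 CPM with EPZ-6438, 152 and 148 CPM with VTP50469, and 213 and 228 CPM with both (1.16 ± 0.13, adjusted p = 0.00105). MXD3 was at 7.14 and 7.97 CPM with control and at 13.5 and 16 CPM with both (1.00 ± 0.14, adjusted p = 0.00249), with the single drugs between them at 10.3 to 12.3 CPM. The libraries with both drugs lay above all libraries of the other 3 conditions for each of these genes. The share of all genes with such a separation was not computed. Both drugs gave higher MXI1 than EPZ-6438 alone (0.80 ± 0.18, adjusted p = 0.0367) and than VTP50469 alone (0.88 ± 0.18, adjusted p = 0.0129). MXD4 was higher with both drugs than with either (0.65 and 0.52). The MXI1 call against EPZ-6438 was kept in only 8 of 15 alternatives, with values down to 0.46, and lost without either VTP50469 library (adjusted p = 0.329 and 0.137), either EPZ-6438 library (0.223 and 0.493) or both-drugs replicate 1 (0.101). The MXI1 call against VTP50469 and both of MXD4 were kept in 12 of 15, each lost without VTP50469 replicate 1 and without EPZ-6438 replicate 2. For MXI1 and MXD4 the departure from the sum of the single changes was 0.00 ± 0.25 and 0.01 ± 0.18, neither of which was called.

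Other members changed less in KARPAS422. MLX was lower with both drugs (-0.32 ± 0.10, adjusted p = 0.0439), a call kept in 9 of 15 alternatives. Among those that lost it were total counts alone, at -0.08 (adjusted p = 0.540). MAX, MXD1 and MNT were not called with any treatment against control, and MNT was lower with both drugs than with VTP50469 (-0.49 ± 0.11). Under the alternatives, MNT with EPZ-6438 was called lower in 6 of 15. With both drugs, MAX and MNT were each called in 2 of 15 and MXD1 in 1. MYCL had 1 and 8 counts with control and 6 and 26 counts with both drugs, too few for a call (adjusted p = 0.242). The same-numbered libraries of KARPAS422 deviated together (correlations of 0.539 to 0.842). With the replicate number as a block, MYCL with both drugs was called (1.67, adjusted p = 0.0819), while MXD3 with EPZ-6438 was not (adjusted p = 0.108). MXI1 with VTP50469 was not called in the fit used for the counts of members below. It was called in 7 of 15 alternatives, the block among them (0.80, adjusted p = 0.0722).

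Against control, EPZ-6438 changed 4 of 9 members in KARPAS422 (18.3% of all genes), VTP50469 2 of 9, MXD3 and MXD4 (3.38%), and both drugs 5 of 9 (48.7%). Both drugs differed from EPZ-6438 for 4 of 9 members (20.9%) and from VTP50469 for 5 of 9 (38.1%). No member departed from additivity, nor did any gene (0%), although MYC had an unadjusted p under 0.05, as did 769 genes in all, and DESeq2 called MYC and 222 genes in all. The 2 calls with VTP50469, at adjusted p = 0.0684 and 0.0765, were lost when any 1 library of control, EPZ-6438 or VTP50469 was left out. Each was kept in 7 of 15 alternatives. Without TMM the median of all genes with both drugs moved from 0.10 to 0.33 and the share of called genes that were higher moved from 48.3% to 64.7%. With EPZ-6438 alone the calls of MXI1, MXD4 and MXD3 were kept in 9, 8 and 4 of 15 alternatives. The calls of MYC, MXI1, MXD3 and MXD4 with both drugs were the same under that scaling. Without the library of both drugs replicate 2, they were also kept.

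**Figure D4:**
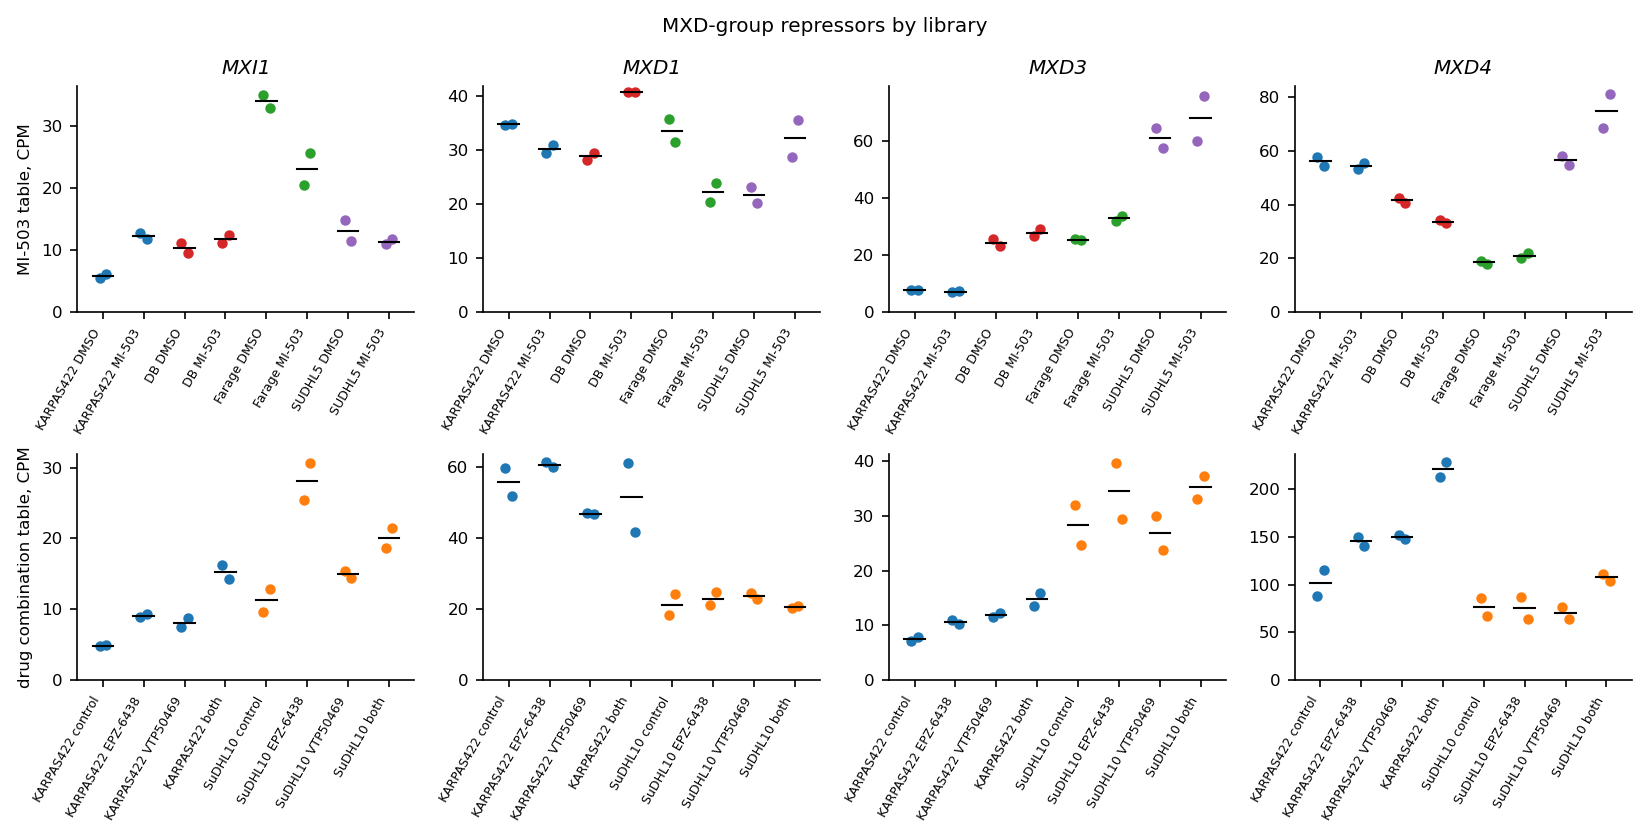
MXI1, MXD1, MXD3 and MXD4 in every library (CPM, linear axes from 0), with points for the 2 libraries of a condition and a bar at their mean, in the MI-503 table (top) and the drug combination table (bottom). In KARPAS422 the libraries with both drugs are highest for MXI1 (16.2 and 14.2 CPM) and MXD4 (213 and 228 CPM), and in SuDHL10 MXI1 is highest with EPZ-6438 (25.5 and 30.6 CPM).

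In SuDHL10, MYC rose rather than fell with both drugs. It was at 455 and 401 CPM with control, 475 and 406 CPM with EPZ-6438, 440.5 and 389 CPM with VTP50469, and 576 and 565 CPM with both. The libraries with both drugs lay above the other 6, with a log2 fold change against control of 0.39 ± 0.11 (adjusted p = 0.0529) that was called in 12 of 15 alternatives, and not without control replicate 2 (adjusted p = 0.279) or either library of both drugs (adjusted p = 0.296 and 0.187). EPZ-6438 gave 0.03 ± 0.11 and VTP50469 -0.04 ± 0.11. Treatment lasted 24 h in SuDHL10 and 48 h in KARPAS422, so line and time cannot be told apart, and the difference between the lines was not tested.

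MXI1 rose in SuDHL10 with EPZ-6438 and with both drugs. It went from 9.57 and 12.9 CPM to 25.5 and 30.6 CPM with EPZ-6438 (log2 1.3 ± 0.15, adjusted p = 0.00131) and to 18.7 and 21.5 CPM with both drugs (0.81 ± 0.15, adjusted p = 0.00926), and it was at 15.5 and 14.5 CPM with VTP50469 (0.41 ± 0.16, adjusted p = 0.712). MXI1 thus peaked with EPZ-6438 alone in SuDHL10 and with both drugs in KARPAS422. MAX was lower with both drugs (-0.36 ± 0.09, adjusted p = 0.0266), from 116 and 115 CPM to 89.96 and 93.4 CPM, a call kept in 11 of 15 alternatives and lost after thinning and without control replicate 2 or either library of both drugs (adjusted p = 0.128, 0.112, 0.196 and 0.168). Its value with EPZ-6438 (-0.28 ± 0.09, adjusted p = 0.0707) was called in only 2 of 15 alternatives and lost without any 1 of the 8 libraries, with an adjusted p up to 0.421. MXD4 was at 111 and 104 CPM with both drugs and at 85.7 and 67.3 CPM with control (0.46 ± 0.18, adjusted p = 0.112). MYCL was called higher with EPZ-6438 and both drugs, but from 5 and 1 counts with control to 12 and 14 and to 14 and 21 counts. Its summed count ratio was 4.75 (95% exact interval 1.91 to 14.1) with EPZ-6438 and 6.54 (2.72 to 19.0) with both drugs, intervals that cover counting error only.

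EPZ-6438 changed 3 of 9 members in SuDHL10 (17.5% of all genes) and both drugs 4 of 9 (21.6%). VTP50469 changed none of the members and no gene (0%) in edgeR, with MXI1 and 724 genes in all at an unadjusted p under 0.05 and no member but 10 genes called by DESeq2. Both drugs differed from EPZ-6438 for no member (4.47% of all genes). MYC, MXD4 and MXI1 had an unadjusted p under 0.05, as did 2215 of the 11409 genes tested. DESeq2 called 1 member there and 583 genes in all. Both drugs differed from VTP50469 for 2 members, MYC (0.43 ± 0.11) and MXD4 (0.58 ± 0.18), where 11.5% of all genes were called. Both calls were kept in 11 of 15 alternatives and lost without any 1 library of VTP50469 or of both drugs, with adjusted p up to 0.367 for MYC and 0.44 for MXD4. No member departed from additivity (0.0526% of all genes). MYC, MXD4 and MXI1 had an unadjusted p under 0.05, as did 1049 of the 11409 genes tested. DESeq2 called no member and 41 genes in all.

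The same-numbered libraries of SuDHL10 also deviated together (correlations of 0.232 to 0.796), and the replicate number as a block changed several of these calls. With the block, both drugs departed from additivity for MYC (0.40, adjusted p = 0.0207), MXD4 (0.63, adjusted p = 0.00927) and MXI1 (-0.94, adjusted p = 0.00264), so MYC and MXD4 were higher and MXI1 lower than the sum of the single changes. The same 3 members differed between both drugs and EPZ-6438, at 0.36 for MYC, 0.51 for MXD4 and -0.50 for MXI1. MXI1 was called with VTP50469 (0.45, adjusted p = 0.0642), MXD3 with EPZ-6438 (0.27) and with both drugs (0.32), and MXD4 with both drugs (0.48, adjusted p = 0.000509). Members that differed between both drugs and VTP50469 rose from 2 to 8, while calls over all 11409 genes tested rose from 1308 to 5761. Between both drugs and EPZ-6438 the calls over all genes rose from 510 to 3790. Against control the block raised them from 1999 to 4490 with EPZ-6438, from 0 to 463 with VTP50469 and from 2469 to 5306 with both drugs. For the departure from additivity it raised them from 6 to 2544.

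The per-kilobase ratio of MYC to the summed repressors fell in KARPAS422 from 1.77 and 1.84 with control to 0.904 and 0.901 with EPZ-6438, 1.36 and 1.33 with VTP50469, and 0.45 and 0.418 with both drugs. In SuDHL10 it lay between 2.06 and 2.44 in all 8 libraries. Control libraries were at 2.31 and 2.29, EPZ-6438 at 2.06 and 2.08, VTP50469 at 2.21 and 2.32, and both drugs at 2.44 and 2.35. The EPZ-6438 libraries were thus below both controls. Per kilobase of the canonical transcript they were too, at 1.47 and 1.55 compared with 1.67 and 1.73. The ratio was not tested.

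Other genes of the pathway were read beside the members in lists that were chosen with earlier results of these data known. Of 32 genes that MYC activates, among them nucleolar proteins, chaperones and metabolic enzymes, the number lower with MI-503 was 30 of 32 tested in KARPAS422 (median log2 fold change -0.27), 30 of 31 in DB (-1.12), 18 of 31 in Farage (-0.19) and 29 of 31 in SUDHL5 (-0.52). Of all genes tested, 26.3%, 34.7%, 14.7% and 28.7% were lower in these lines. The medians of all genes were between -0.00 and 0.02. The list was lower in KARPAS422 and Farage too, where MYC itself was not. In DB the called genes with the largest changes were TFRC (the transferrin receptor, -1.79), SLC19A1 (a folate carrier, -1.70), LDHA (lactate dehydrogenase, -1.52) and NOP56 (a nucleolar protein, -1.42). In KARPAS422, CCND2 (cyclin D2) was the exception, higher by 1.73. In Farage, LDHA (-1.22) and TFRC (-0.84) led.

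With both drugs in KARPAS422, 29 of 30 activated genes tested were lower (median -1.16, all genes 0.10), compared with 25.2% of all genes, led by HSPD1 (a mitochondrial chaperone, -1.76), LDHA (-1.57), MRTO4 (-1.55) and SLC19A1 (-1.54). EPZ-6438 lowered 19 of 30 (median -0.47, 10.03% of all genes lower) and VTP50469 none (0.197% of all genes), with a median of -0.19. Both drugs also lowered 28 of 30 when compared with EPZ-6438 alone, where 10.9% of all genes were lower. In SuDHL10, EPZ-6438 lowered 13 of 30 and raised 2 (median -0.30), and both drugs lowered 3 and raised 1 (median -0.11), where 5.39% and 7.93% of all genes were lower. CCND2 was higher there by 4.45 with EPZ-6438 and 5.27 with both drugs.

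**Figure D5:**
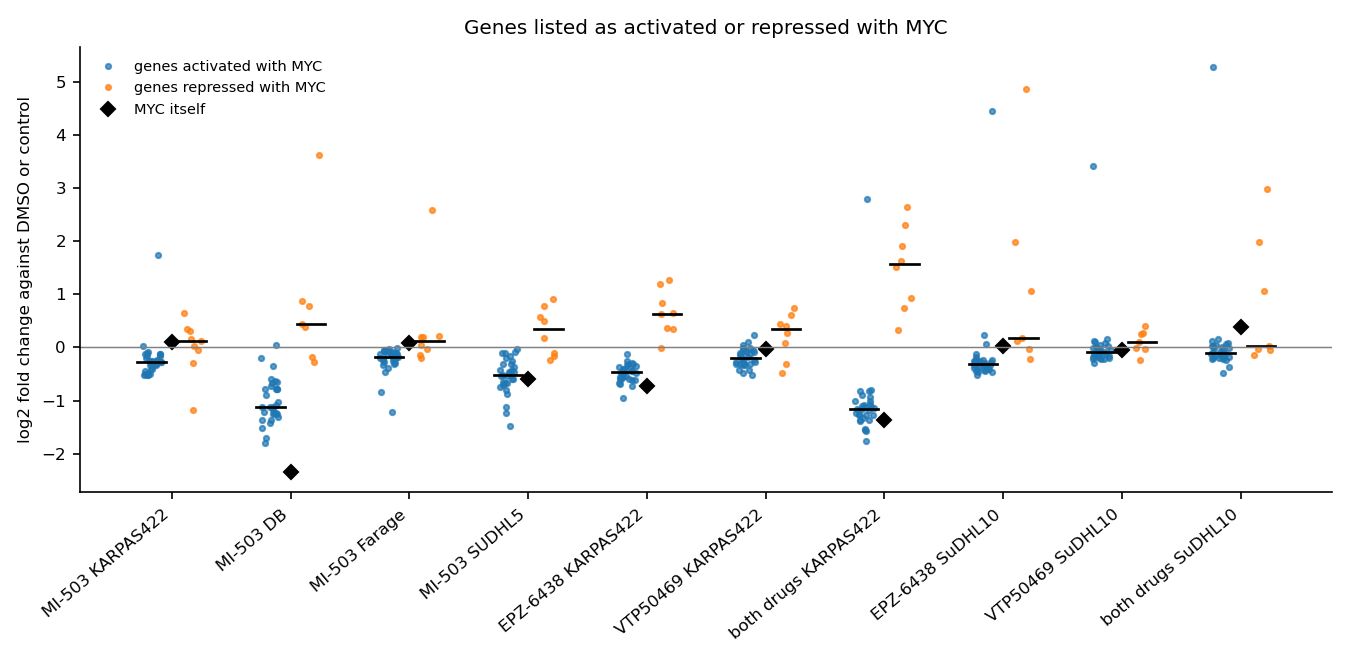
Log2 fold changes of single genes listed as activated (blue) or repressed (orange) with MYC, and of MYC (black diamonds), in 10 comparisons with DMSO or control, with bars at the medians. The activated genes have medians of -1.12 in DB with MI-503 and -1.16 in KARPAS422 with both drugs, where MYC is at -2.34 and -1.36, and of -0.27 in KARPAS422 with MI-503, where MYC is at 0.10.

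Of 10 genes listed as repressed with MYC, 8 were tested in KARPAS422 with both drugs and 6 of them were higher, none lower (median 1.57), compared with 23.5% of all genes higher. They included NDRG1 (2.64), GADD45A (1.91), the CDK inhibitor CDKN1A (1.62) and CCNG2 (1.51). With MI-503 the list was mixed. In DB 5 of 7 were higher and 2 lower, led by the CDK inhibitor CDKN2B (3.61), where 34.5% of all genes were higher and 34.7% lower. In SUDHL5 4 of 8 were higher and 3 lower, in KARPAS422 3 and 1 of 9, and in Farage 4 and 1 of 8. Of all genes, 26.3% were higher and 28.7% lower in SUDHL5, 25.45% and 26.3% in KARPAS422, and 12.3% and 14.7% in Farage. In SuDHL10, NDRG1, CDKN1A and GADD45A were higher with EPZ-6438 (4.85, 1.97 and 1.06) and with both drugs (2.97, 1.99 and 1.06), although MYC was not lower there. They were 3 of 7 genes tested, and none was lower. The medians of the list were only 0.17 with EPZ-6438 and 0.02 with both drugs, and 12.1% and 13.7% of all genes were higher.

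The cofactors of MYC and of its repressors were read in the same way. Of 13 cofactors, 7 were lower and none higher in KARPAS422 with both drugs, led by the ATPases RUVBL1 (-1.24) and RUVBL2 (-1.09), the deacetylase HDAC2 (-0.93) and WDR5 (-0.91). Of all genes tested in this comparison, 25.2% were lower and 23.5% higher, 48.7% called in either direction. In DB with MI-503, 8 were lower and 4 higher, with RUVBL1 at -1.04, where 34.7% of all genes were lower and 34.5% higher (69.2% called). Among 13 genes of MYC protein turnover and kinases, 8 were lower and 2 higher in KARPAS422 with both drugs, with SKP2 at -0.99 and CIP2A at -0.96, beside 25.2% of all genes lower and 23.5% higher. In SuDHL10, PIM1, a kinase that phosphorylates MYC, was higher with EPZ-6438 (1.14) and both drugs (1.71). Of the 13 genes there, 1 was called higher and none lower with EPZ-6438, and 1 higher and 3 lower with both drugs. Of all genes, 12.1% were higher and 5.39% lower with EPZ-6438, and 13.7% and 7.93% with both drugs.

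The other genes of the network are MGA, a dual repressor, and the 2 partners of MLX. MGA was lower with MI-503 in KARPAS422 (-0.20), DB (-0.33) and SUDHL5 (-0.17). MLXIP was lower in DB with MI-503 (-0.48) and in KARPAS422 with EPZ-6438 (-0.56) and both drugs (-0.78), and higher in SUDHL5 (0.36). MLXIPL stayed at or under 4.14 CPM in every library and was never called with a drug. It is 1 of the genes in which the library of KARPAS422 with both drugs replicate 2 stood apart, at 4.14 CPM compared with 0.253 CPM in replicate 1. TXNIP, the target of MLX and MondoA that restrains glucose uptake, fell with MI-503 in KARPAS422 (-0.89), Farage (-0.80) and SUDHL5 (-1.40) and rose in DB (0.80). It rose with both drugs in KARPAS422 (1.62) and SuDHL10 (0.78). HK2 (hexokinase 2) fell with MI-503 in all 4 lines, by 0.54 in SUDHL5, 0.38 in KARPAS422, 1.36 in Farage and 1.13 in DB on the log2 scale. KLF10 was lower in KARPAS422 (-0.23), Farage (-0.38) and SUDHL5 (-0.52), and PFKFB3 in DB (-0.52), Farage (-0.71) and SUDHL5 (-0.72). Of the drug comparisons within lines, ARRDC4 was tested only with MI-503 in SUDHL5 (-2.23) and PKLR in none. Lower with MI-503 were thus 3 of 4 tested targets in KARPAS422, 4 of 4 in Farage and 5 of 5 in SUDHL5, and in DB 2 were lower and 1 higher. Of all genes, 26.3% were lower in KARPAS422, 14.7% in Farage and 28.7% in SUDHL5. In DB 34.7% of all genes were lower and 34.5% higher. With both drugs, 2 of 4 tested targets were higher and 1 lower in KARPAS422, beside 23.5% and 25.2% of all genes. In SuDHL10 2 of 4 were higher and none lower, beside 13.7% and 7.93%. EPZ-6438 raised 1 and lowered 1 of 4 in KARPAS422, beside 8.27% of all genes higher and 10.03% lower. It raised 3 of 4 and lowered none in SuDHL10, beside 12.1% and 5.39%. VTP50469 changed none in either line.

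Across the 16 libraries of the MI-503 table, the genes whose log2 CPM was most like that of MYC were KIAA0040 (Pearson's r = 0.991), XPO5 (0.978), HMOX2 (0.978), RPP40 (0.977) and CISD1 (0.975), of 10559 genes with a mean of at least 5 CPM. The libraries share 4 lines, so r mostly follows the order of the lines, and 161 genes exceeded 0.9.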

How the data were processed

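RNA-seq libraries of human lymphoma lines were grouped by the line, treatment and replicate number in the labels. The authors aligned reads to hg38 with HISAT2 (2.1.0) and assigned them to genes with featureCounts (1.6.1). The deposited tables hold raw counts, 1 row a gene. CASAVA (1.7) and Picard (2.23.1) are listed in the submitters' processing notes without a role. Strand, annotation and the handling of multi-mapping reads remain not given in the sources used here. No sgRNA of the screen tables targets a member, so these were not used, and CUT&Tag was not analysed here. A B-cell marker is not reported here.

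Genes that passed filterByExpr were scaled by TMM. The quasi-likelihood test of edgeR (4.0.16, R 4.3.3) was applied, and p-values were adjusted over all genes kept by the Benjamini-Hochberg method. Each MI-503 line was fitted alone, the 4 lines shared a fit for their differences, and the 8 libraries of a line shared a fit in the drug combination. The tables were normalized separately and never tested against each other. Levels per kilobase used the merged exons of GENCODE v44 and promoter sequence came from RefSeq GRCh38.p14. Alternatives were total counts alone, DESeq2 (1.42.0), RLE size factors, no filter, thinning to the shallowest library, a fold above 1.5, all 16 MI-503 libraries in 1 fit, the 2 compared groups alone, a replicate block and each library left out. Scripts were tested on simulated counts.

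The members and lists were chosen with earlier results of these data known. Named genes other than members are all genes of lists of up to 6, up to 4 called genes with the largest changes of longer lists, and the 5 genes most correlated with MYC. Replicate libraries differed beyond sampling noise (chi-square per gene of 1.82 to 47.5 over 16 groups). In the drug combination, deviations of same-numbered libraries correlated at 0.539 to 0.842 in KARPAS422 and 0.232 to 0.796 in SuDHL10 over 6 pairs of groups each, and the numbers were taken as pairs from these data, although no label says that a number marks a shared day.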

Additional observations from a re-analysis of the deposited data

Results flagged for a closer look

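The change with MI-503 differed between the 4 lines for every member tested (edgeR F test of 3 interaction terms, adjusted p). For MYC the value was 3.29e-12, with a fall in DB and SUDHL5 and none in KARPAS422 and Farage. For the repressors it was 2.75e-06 for MXI1, 3.21e-06 for MXD1, 9.16e-05 for MXD4, 0.0549 for MNT and 0.0782 for MXD3. For MAX it was 0.00034, for MLX 0.0205 and for MYCL 0.0658. The same test called 57.2% of all genes.

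Between KARPAS422 and Farage, the difference of the MI-503 change was 1.61 for MXI1, 0.37 for MXD1 and -0.48 for MXD3 on the log2 scale (edgeR interaction term, called at an adjusted p under 0.1). MXI1 was called in all alternatives, with values from 1.39 to 1.83.

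With EPZ-6438 and VTP50469 together, MYC moved by -1.36 in KARPAS422 and by 0.39 in SuDHL10, and all libraries with both drugs lay below control in the first line and above it in the second. MNT likewise had -0.19 in KARPAS422 and 0.15 in SuDHL10, neither of which was called. The difference between the lines was not tested, and the lines also differ in treatment time.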

How the results depend on the processing

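Over all comparisons, with members that were not called included, named members mostly stayed on the same side of the threshold. Several calls in the drug combination did not. With EPZ-6438, MXD3 in KARPAS422 was called in 4 of 15 alternatives and MAX in SuDHL10 in 2 of 15. Counts of members called moved by over 1.5 times as follows, and the cause was not tested. With a fold above 1.5 also required, 5 were called between KARPAS422 and DB, 5 between DB and Farage, 3 between DB and SUDHL5, 1 each with MI-503 in KARPAS422, DB and Farage, 3 in SUDHL5, 1 in the interaction of KARPAS422 and Farage, 2 with EPZ-6438 and 2 for both drugs against VTP50469 in KARPAS422, and 2 with both drugs and 0 against VTP50469 in SuDHL10. On total counts, 8 were called between KARPAS422 and Farage, MXD1 there turned to 0.17, and MXD4 between KARPAS422 and SUDHL5 turned to 0.13. With all 16 libraries in 1 fit, 3 were called with MI-503 in KARPAS422. After thinning, 3 were called with MI-503 in SUDHL5, 1 in the interaction, 1 with VTP50469 in KARPAS422 and 1 with EPZ-6438 in SuDHL10. With no filter, 0 were called with VTP50469 in KARPAS422, and in SuDHL10 3 for both drugs against EPZ-6438, 4 against VTP50469 and 2 for the departure from additivity. With the 2 compared groups alone, 2 were called for both drugs against EPZ-6438 in KARPAS422 and 8 against VTP50469 in SuDHL10. DESeq2 called 1 for the departure from additivity in KARPAS422, and in SuDHL10 1 with EPZ-6438 and 1 for both drugs against EPZ-6438; it was not run for the test over 4 lines.

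The replicate block, in SuDHL10, called 1 member with VTP50469, 3 for both drugs against EPZ-6438, 8 against VTP50469 and 3 for the departure from additivity. Of all 11409 genes tested, it called 463, 3790, 5761 and 2544 in these comparisons. In the MI-503 table the same-numbered libraries shared only a number (correlations of 0.171 for KARPAS422, -0.0811 for Farage, 0.0528 for DB and -0.0526 for SUDHL5), and with the block MXD3 in SUDHL5 (adjusted p = 0.135) and the interaction of MXD1 (adjusted p = 0.161) were not called.

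Leaving out 1 library gave 3 to 6 members with MI-503 in KARPAS422, 3 to 6 in Farage and 1 to 3 in the interaction. In KARPAS422 it gave 0 to 5 with EPZ-6438, 0 to 3 with VTP50469, 4 to 8 with both drugs, 0 to 5 for both against EPZ-6438, 0 to 7 against VTP50469 and 0 to 4 for the departure from additivity. In SuDHL10 it gave 1 to 3 with EPZ-6438, 1 to 5 with both drugs, 0 to 4 for both against EPZ-6438, 0 to 4 against VTP50469 and 0 to 3 for the departure. Without both-drugs replicate 1 in KARPAS422, MXD1 was at -0.44 for both drugs against VTP50469 and at -0.56 for the departure, and without replicate 2 at 0.40 and 0.32. A lone library is assumed to vary like the others in the fit. Low counts limit MYCL, and MYCN could not be tested.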
